A study of Mus musculus with 8 samples.

Results

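The genes of 3 families of mainly nuclear RNA-binding proteins, Rbm, hnRNP and SR, were followed through an RNA immunoprecipitation of the germ cell protein Dazl from mouse testis. Members were taken by the gene name printed on the array: names starting with Rbm and a digit, with Hnrp or Hnrnp, or with Sfrs or Srsf and a digit. The rule used names alone and no measured value. It found 66 of 27962 gene names, of which 30 are Rbm genes, 20 hnRNP genes and 16 SR genes, on 145 probes. Of these, 63 genes were measured, meaning that in at least 1 group both arrays were well above background: 28 Rbm, 19 hnRNP and 16 SR genes. Hnrnpul2, Rbm31y and Rbm41 were well above background on 0 of 8 arrays. Array names are those of the design, so current RefSeq symbols are used below, with the array's name where it differs by more than the change of Hnrp to Hnrnp or of Sfrs to Srsf.

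The testes came from male mice of a mixed C57BL/6 and 129SV background at postnatal day 14, and their germ cells expressed Dazl fused to the tags GFP and V5. They were dissociated and lysed without crosslinking by ultraviolet light. There are 4 groups of 2 arrays: RNA precipitated with an antibody against V5, RNA precipitated with an antibody against GFP, RNA from a mock precipitate with normal mouse IgG, and total input RNA. All 4 groups carry the fusion protein, so IgG and input are controls for the antibody and not for the tag. What drives the fusion, how many animals went into a lysate and whether the 2 replicates of a group are separate animals are not given in the sources used here, so the p-values reflect only how these arrays scatter, which may be technical.

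SR proteins have RNA recognition motifs and a tail rich in arginine and serine, and many of them bind exons and favour their inclusion in the mRNA. hnRNP proteins coat nascent transcripts and often act against exon inclusion, and several also steer export, stability and translation. The symbol Rbm was given to proteins for having an RNA-binding motif, so the family is mixed and holds splicing factors, a subunit of the exon junction complex, nucleolar factors and partners of the nuclear exosome. Many SR and hnRNP proteins limit their own amount by splicing their transcripts into forms that are degraded. Dazl itself is mainly cytoplasmic and binds mRNAs in their 3′ untranslated regions. The arrays measured transcripts of the 3 families, not the proteins.

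Signal is given as a multiple of the array's own 75th percentile over non-control spots, and a fold change as log2 ± SE from limma (n = 2 arrays per group) with its p adjusted over 17593 genes. A gene is called higher or lower at an adjusted p under 0.05. On the 8 arrays 57.2% to 62.2% of 43379 spots were well above background, 0 were saturated, and replicate arrays correlated over genes, which are not independent, at r = 0.9944 to 0.9973. The IgG arrays differed most, with a median absolute log2 difference of 0.159, against 0.0924 for V5, 0.0851 for GFP and 0.0768 for input. V5 and GFP arrays lay on one slide and IgG and input arrays on another, so slide and group cannot be told apart in V5 or GFP against IgG or input. V5 against GFP and IgG against input are comparisons within a slide. For the GFP precipitate the series text gives PABP1 as the target of the antibody, and the sample labels, which say GFP, were followed. The descriptions of V5 replicate 1 and input replicate 2 go against their titles and antibodies, so the calls that ended without these 2 arrays together are named with each comparison.

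The 63 transcripts did not move as 1 block. The IgG mean was the lowest of the 4 group means for 37 of them, or 58.7%, against 17.4% of all genes. The input mean was the highest for 27 and the GFP mean for another 27, or 42.9% each, against 31.8% and 19.6% of all genes. In 44 of 63, or 69.8%, the means ran from GFP through V5 down to IgG, an order found in 24.0% of all genes. The families differed in where input stood. Input was the highest group in 14 of 19 hnRNP genes (73.7%), in 9 of 28 Rbm genes (32.1%) and in 4 of 16 SR genes (25%). Over all genes the share was 31.8%, so the Rbm share was near that of the background and the SR share somewhat below it. With spike-in RNA as the scale, the IgG mean was lowest for 57 members and 49.0% of all genes, and 49 members and 42.3% of all genes had the order GFP, V5, IgG. On that scale input was highest in 14 hnRNP, 18 Rbm and 7 SR genes, and in 10671 of all 17593 genes. These shares are descriptions, since the groups share arrays and slides.

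**Figure D1:**
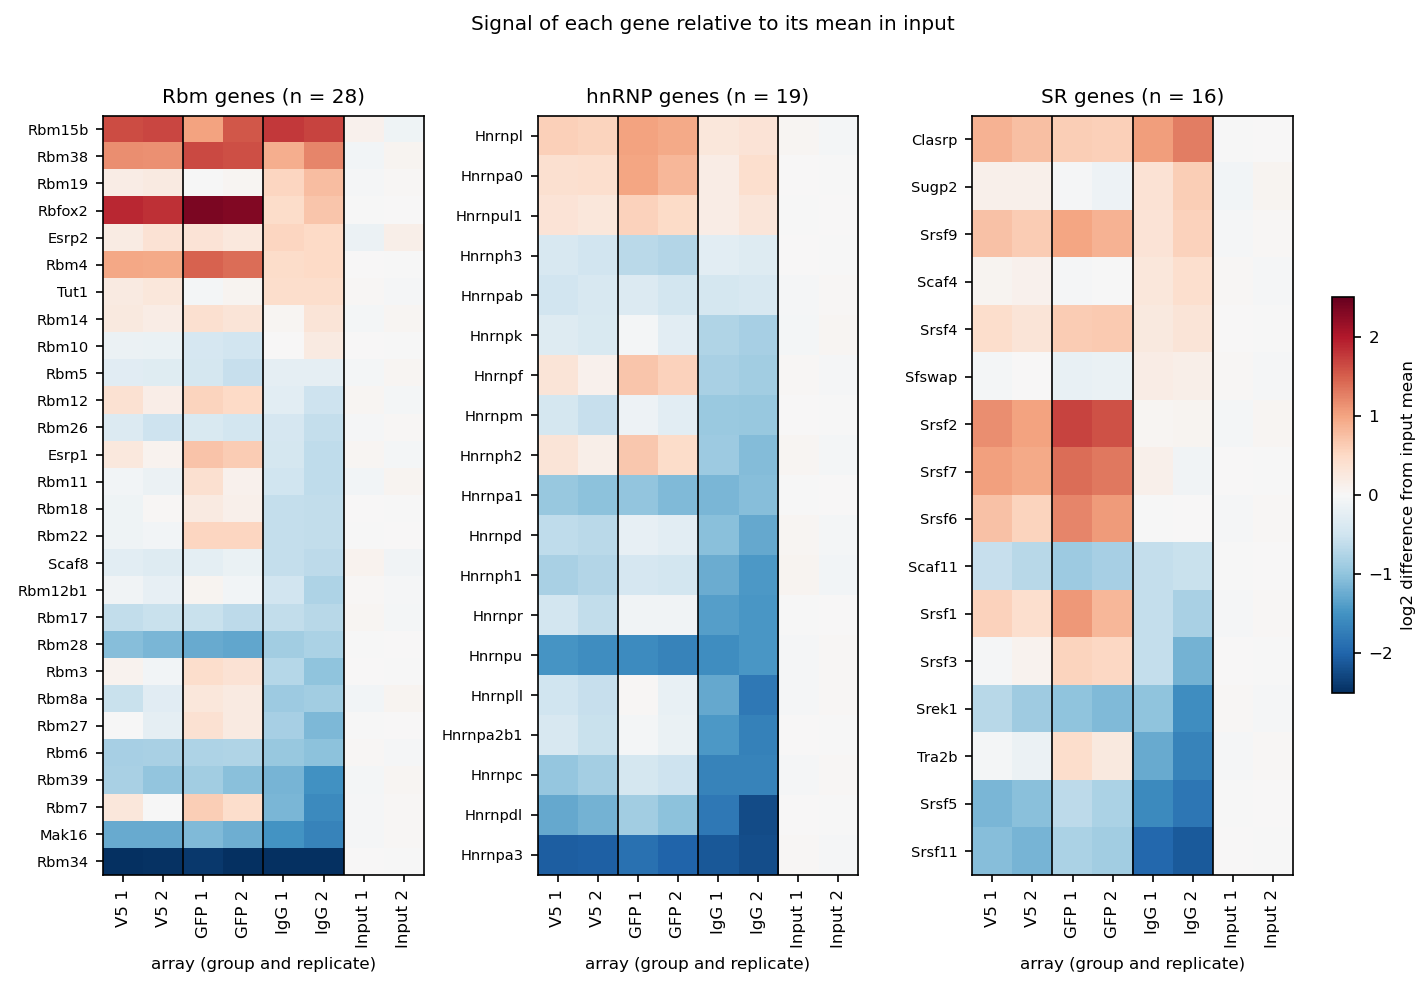
Signal of the 63 measured genes on each of the 8 arrays as a log2 difference from the gene's own mean in input, with red above and blue below it and colours capped at the ends of the bar. Rows run within each family from the highest to the lowest value of IgG against input. Most hnRNP rows are blue in the IgG columns and paler in the V5 and GFP columns, while Srsf2, Srsf7, Rbfox2 and Rbm4 are red in all V5 and GFP columns.

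The comparison of each precipitate with IgG asks which of these transcripts came down with tagged Dazl above the mock. With V5, 36 of 63 members were called higher and 7 lower, against 16.7% of all genes higher and 40.3% lower (57% in either direction). With GFP, 43 were called higher and 11 lower, against 21.6% and 52.1% of all genes (73.7% in either direction). Called and at least 2-fold higher were 8 members with V5 and 21 with GFP, against 422 and 1198 of all 17593 genes. Called and at least 2-fold lower were 0 members with either antibody, against 783 and 1172 of all genes. The median log2 fold change was 0.44 for the members with V5, against -0.21 for all genes, and 0.62 with GFP, against -0.32 for all genes. Of the calls with V5, 29 of the 36 higher and 1 of the 7 lower passed in each of the 8 fits that left out 1 array. With GFP these were 38 of 43 and 9 of 11. Without V5 replicate 1 and input replicate 2 together, 14 members were called higher and 0 lower with V5, and 29 of the 43 calls with V5 ended. The 14 calls that held were those of Rbm7, Rbm8a, Rbfox2, Rbm18, Hnrnpa2b1, Hnrnpc, Hnrnpf, Hnrnph2, Hnrnpr, Srsf1, Srsf2, Srsf7, Srsf11 and Tra2b. With GFP 5 of 54 calls ended, those of Hnrnpa3, Hnrnpul1, Rbm39, Rbm5 and Rbm6. With normexp background correction limma called 0 members with V5, where 25 of 63 had an unadjusted p under 0.05. Over all 17593 genes it also called 0 with V5, and 3694 had an unadjusted p under 0.05. With GFP it called 26 members higher and 1 lower, against 8.54% and 9.78% of all genes. Calls over all genes with V5 also became fewer without V5 replicate 1 and input replicate 2, so these losses were not particular to the members.

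By family, V5 gave 16 higher and 3 lower of 28 Rbm genes (median 0.33), 12 higher and 0 lower of 19 hnRNP genes (0.44) and 8 higher and 4 lower of 16 SR genes (0.55). GFP gave 18 higher and 5 lower Rbm genes (median 0.42), 15 higher and 1 lower hnRNP genes (0.73) and 10 higher and 5 lower SR genes (0.72). The SR family was split. Of 9 genes whose current symbol is Srsf, 7 were called higher with V5 and 9 with GFP, and 0 were called lower with either. Of 7 genes that no longer bear that symbol, 1 was higher and 4 lower with V5, and 1 was higher and 5 lower with GFP. This split was made after the values were seen and is a description.

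The 36 and 43 calls of members above IgG were also made with spike-in RNA as the scale, and the 7 and 11 calls below IgG were not. That scaling put the median over all genes at 0.16 with V5, in place of -0.21, and at 0.14 with GFP, in place of -0.32. Of all calls it made 87.5% higher with V5, in place of 29.3%, and 75.3% higher with GFP, in place of 29.3%. With quantile normalization 39.5% of all calls with V5 were higher. Spike-in scaling moved the typical gene by 0.37 with V5 and 0.46 with GFP, which turned the sign of 14 and 10 members. Among the members spike-in scaling gave 53 higher and 0 lower with V5, and 50 higher and 0 lower with GFP. Relative to all genes, the median of Rbm genes lay 0.39 to 0.61 above with V5 and 0.57 to 0.82 with GFP over the 18 settings tried. That of hnRNP genes lay 0.46 to 0.73 above with V5 and 0.81 to 1.12 with GFP, and that of SR genes 0.53 to 0.90 and 0.88 to 1.12.

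**Figure D2:**
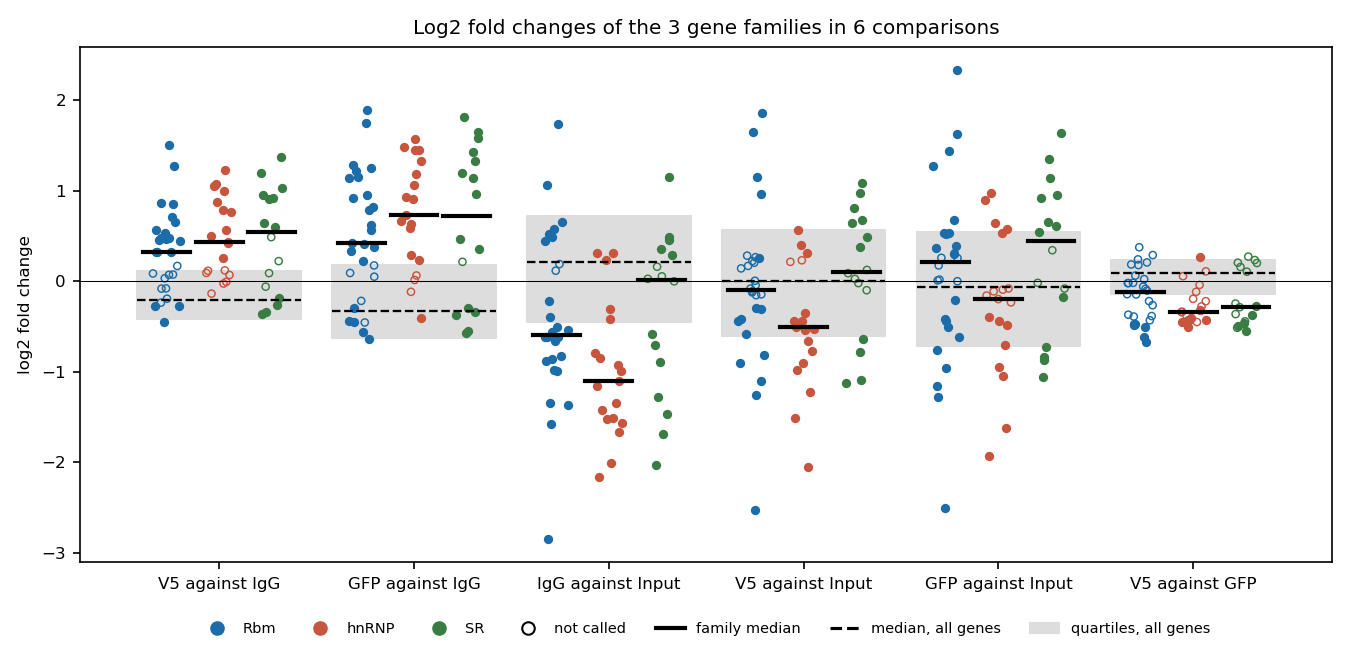
Log2 fold change of each measured gene in the 6 comparisons, with filled points for genes called at an adjusted p under 0.05. Bars are family medians, and the dashed line and grey box are the median and quartiles of all 17593 genes. All 3 family medians over IgG lie above 0 under each of the 18 settings, the median of SR genes in IgG against input changes sign with the setting, and spike-in scaling turns the all-gene medians over IgG above 0.

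Among the Rbm genes, the highest fold changes over IgG were those of Rbm7, which in human cells is part of a complex that feeds transcripts to the nuclear exosome. It read 8.55 and 6.98 with V5, 10.7 and 9.49 with GFP, 3.17 and 2.33 with IgG and 6.81 and 7.19 in input. Both precipitates were clear of IgG, by 1.51 ± 0.17 with V5 (2.84-fold, adjusted p = 0.00184) and 1.89 ± 0.17 with GFP (3.71-fold, adjusted p = 0.000271), and V5 overlapped with input. Rbfox2 (Rbm9 on the array), a splicing regulator, read 8.21 and 7.88 with V5, 11.3 and 11.0 with GFP, 3.06 and 3.61 with IgG and 2.22 and 2.23 in input. Here all 4 groups were apart, with GFP on top and input at the bottom, and the gains over IgG were 1.28 ± 0.090 with V5 (adjusted p = 0.000770) and 1.75 ± 0.090 with GFP (3.36-fold, adjusted p = 8.23e-05). The level of Rbfox2 was already 0.58 ± 0.090 higher with IgG than in input (adjusted p = 0.00109), and -0.20 with spike-in scaling.

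Rbm27, a zinc finger protein linked in human cells to nuclear RNA decay, read 3.23 and 2.77 with V5, 4.25 and 3.81 with GFP, 1.83 and 1.48 with IgG and 3.23 and 3.28 in input. It was 0.86 ± 0.13 higher with V5 and 1.29 ± 0.13 higher with GFP than with IgG (adjusted p = 0.00371 and 0.000350). Rbm3, which cold induces, read 20.0 and 18.1 with V5, 25.6 and 24.2 with GFP, 11.5 and 9.45 with IgG and 19.1 and 18.7 in input. V5 thus overlapped input and GFP lay above it, and the gains over IgG were 0.86 ± 0.11 with V5 and 1.25 ± 0.11 with GFP (adjusted p = 0.00251 and 0.000253). For both genes the call with V5 ended without V5 replicate 1 and input replicate 2 together (0.75 for Rbm27 and 0.79 for Rbm3).

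Rbm8a, the subunit Y14 of the exon junction complex, read 14.03 and 16.9 with V5, 25 and 24.1 with GFP, 11.0 and 11.3 with IgG and 19.7 and 21.5 in input. The 4 groups did not overlap, GFP alone lay above input (0.26 ± 0.10, and -0.061 with spike-in scaling), and the gains over IgG were 0.47 ± 0.10 with V5 and 1.14 ± 0.10 with GFP (adjusted p = 0.0105 and 0.000273). Rbm39, a splicing coactivator, read 6.71 and 5.97 with V5, 6.41 and 5.72 with GFP, 5.28 and 4.10 with IgG and 11.5 and 12.1 in input. All V5 and GFP arrays stood above IgG and far below input. Its calls over IgG (0.44 ± 0.14 with V5, adjusted p = 0.0318, and 0.38 ± 0.14 with GFP, adjusted p = 0.0414) are weak. That with V5 ended without IgG replicate 2, either V5 array or either input array, at 0.26 to 0.53, and that with GFP without any array other than IgG replicate 1, at 0.20 to 0.46. Rbm22, an active-site protein of the spliceosome, Esrp1 (Rbm35a on the array), an epithelial splicing factor, and Rbm4, a splicing regulator, gained 1.15 ± 0.059, 1.21 ± 0.098 and 0.95 ± 0.063 over IgG with GFP, and 0.53 ± 0.059, 0.71 ± 0.098 and 0.48 ± 0.063 with V5. These calls with V5 ended without V5 replicate 1 and input replicate 2 together (0.55, 0.62 and 0.47, adjusted p = 0.0520, 0.0605 and 0.0635).

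Of 28 Rbm genes 3 were called lower than IgG with V5 and 5 with GFP. Rbm19, a factor of ribosome biogenesis, read 6.03 and 6.18 with V5, 5.29 and 5.45 with GFP, 7.70 and 9.07 with IgG and 5.21 and 5.38 in input, and was -0.45 ± 0.090 with V5 (adjusted p = 0.00809) and -0.64 ± 0.090 with GFP (adjusted p = 0.00103). The call with V5 ended without V5 replicate 1 and input replicate 2 together (-0.44, adjusted p = 0.0929). Its IgG arrays stood above all the others, though IgG against input was -0.12 with spike-in scaling. Rbm28, also of the nucleolus, read 4.46 and 4.22 with V5, 3.88 and 3.78 with GFP, 5.06 and 5.40 with IgG and 9.22 and 9.38 in input, and was -0.27 ± 0.069 with V5 and -0.45 ± 0.069 with GFP (adjusted p = 0.0171 and 0.00138), signs that turned with spike-in scaling (0.096 and 0.013). For Rbm28 both precipitates were the lowest groups and input the highest. The call with V5 ended without IgG replicate 2 (-0.22), V5 replicate 2 (-0.23) or V5 replicate 1 and input replicate 2 together (-0.31). By contrast, the nucleolar gene Rbm34 and the ribosome assembly gene Mak16 (Rbm13 on the array) were called higher than IgG, by 0.32 ± 0.083 and 0.32 ± 0.082 with V5 and 0.34 ± 0.083 and 0.43 ± 0.082 with GFP. Their calls with V5 ended without IgG replicate 2, V5 replicate 2 or both arrays of doubtful description (0.37 and 0.32), and that of Rbm34 with GFP ended without GFP replicate 1.

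Rbm10, a splicing regulator, read 6.36 and 6.22 with V5, 5.26 and 5.04 with GFP, 7.08 and 8.14 with IgG and 7.04 and 6.95 in input. GFP was lowest, at -0.56 ± 0.083 against IgG (adjusted p = 0.00122), and V5 lay between, at -0.27 ± 0.083 (adjusted p = 0.0313, and 0.096 with spike-in scaling). The call with V5 ended without any 1 array other than IgG replicate 1, at -0.29 to -0.17. Rbm5, a relative of Rbm10 that mouse spermatids need for splicing, did not pass with V5 (-0.08 ± 0.076, adjusted p = 0.386) and was lower with GFP (-0.29 ± 0.076, adjusted p = 0.0126). That call ended without GFP replicate 2 (-0.22), and its sign turned with spike-in scaling (0.17). Tut1 (Rbm21 on the array), a terminal uridylyltransferase, was called lower with GFP (-0.43 ± 0.073, adjusted p = 0.00203, and 0.028 with spike-in scaling) and did not pass with V5 (-0.19 ± 0.073, adjusted p = 0.0620, and 0.17 with spike-in scaling).

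Among the 19 hnRNP genes, of which 0 were called lower than IgG with V5 and 1 with GFP, the highest fold changes were those of Hnrnph2 and Hnrnpf, close relatives that bind runs of guanines. Hnrnph2 read 7.88 and 6.97 with V5, 10.1 and 8.73 with GFP, 3.37 and 2.97 with IgG and 6.48 and 6.14 in input, a gain over IgG of 1.23 ± 0.11 with V5 (2.34-fold, adjusted p = 0.00114) and 1.57 ± 0.11 with GFP (2.97-fold, adjusted p = 0.000149). Hnrnpf read 71.6 and 62.3 with V5, 93.3 and 86.0 with GFP, 32.8 and 31.5 with IgG and 58.3 and 56.8 in input, a gain of 1.06 ± 0.089 with V5 and 1.48 ± 0.089 with GFP (adjusted p = 0.00102 and 9.99e-05). In both genes the IgG arrays were lowest, and the V5 and GFP arrays lay above input. Against input neither passed with V5 (0.23 ± 0.11 for Hnrnph2 and 0.22 ± 0.089 for Hnrnpf), and both were below 0 with spike-in scaling (-0.18 and -0.20). The dimmer probe of Hnrnpf was -0.67 in V5 against input, where it was called lower, and -0.14 in GFP against input. Hnrnph1, of the same subfamily, gained 0.57 ± 0.089 with V5 and 0.91 ± 0.089 with GFP, of which the call with V5 ended without V5 replicate 1 and input replicate 2 together (0.61, adjusted p = 0.0611). Hnrnph3 stood at -0.14 ± 0.066 with V5 (adjusted p = 0.118, and 0.23 with spike-in scaling) and -0.40 ± 0.066 with GFP (adjusted p = 0.00179, and 0.061 with spike-in scaling).

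Hnrnpa2b1, which binds many mRNAs and takes part in their transport, read 10.1 and 9.06 with V5, 12.9 and 11.9 with GFP, 4.93 and 4.16 with IgG and 13.5 and 13.3 in input. The IgG arrays were lowest, and the gains over them were 1.08 ± 0.11 with V5 and 1.45 ± 0.11 with GFP (adjusted p = 0.00135 and 0.000157). Its relatives behaved differently. Hnrnpa1, which often blocks splice sites, read 11.1 and 10.5 with V5, 10.8 and 9.95 with GFP, 9.71 and 10.1 with IgG and 21.3 and 21.4 in input, and did not pass over IgG (0.12 ± 0.074 with V5, adjusted p = 0.198, and 0.06 ± 0.074 with GFP, adjusted p = 0.454). Hnrnpa3 read 21.9 and 22.1 with V5, 25 and 22.8 with GFP, 21.1 and 19.5 with IgG and 92.4 and 89.8 in input. Its precipitates were thus all far below input, and over IgG it gained 0.12 ± 0.076 with V5 (adjusted p = 0.227) and 0.23 ± 0.076 with GFP (adjusted p = 0.0301), of which the call with GFP ended without GFP replicate 1, IgG replicate 2, either V5 array or either input array (0.17 to 0.23).

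Hnrnpll, a regulator of splicing in lymphocytes, read 3.98 and 3.78 with V5, 5.72 and 4.90 with GFP, 2.32 and 1.63 with IgG and 5.49 and 5.71 in input. The IgG arrays were lowest and unlike each other, and the level was 1.99-fold higher with V5 and 2.72-fold higher with GFP (adjusted p = 0.00512 and 0.000530). The call with V5 ended without V5 replicate 1 and input replicate 2 together (0.96). Its relative Hnrnpl, which binds CA repeats, read 5.81 and 5.69 with V5, 7.82 and 7.45 with GFP, 4.71 and 4.91 with IgG and 3.98 and 3.76 in input, the reverse order of IgG and input, which spike-in scaling undid (-0.47). It gained 0.26 ± 0.068 with V5 and 0.67 ± 0.068 with GFP over IgG (adjusted p = 0.0187 and 0.000379), and the call with V5 ended without either V5 array (0.24 and 0.27).

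Hnrnpc, which binds uridine tracts in nascent RNA, read 3.78 and 4.10 with V5, 5.42 and 5.17 with GFP, 2.31 and 2.33 with IgG and 7.22 and 7.54 in input. The 4 groups did not overlap, with IgG lowest, then V5, then GFP, and input highest, and the gains over IgG were 0.76 ± 0.071 with V5 and 1.19 ± 0.071 with GFP (adjusted p = 0.00121 and 9.99e-05). Hnrnpd, which binds AU-rich elements and speeds mRNA decay, gained 0.50 ± 0.093 with V5 and 0.93 ± 0.093 with GFP (adjusted p = 0.00666 and 0.000361). Hnrnpk, which binds cytidine-rich RNA, gained 0.44 ± 0.089 with V5 and 0.63 ± 0.089 with GFP (adjusted p = 0.00865 and 0.00103). The V5 calls of Hnrnpd (0.48) and Hnrnpk (0.41) ended without V5 replicate 1 and input replicate 2 together.

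Hnrnpu, the scaffold attachment factor of the nuclear matrix, did not pass over IgG with either antibody, like Hnrnpa1 and Hnrnpab. It read 22.6 and 21.6 with V5, 21.2 and 19.7 with GFP, 21.4 and 22.9 with IgG and 61.9 and 63.9 in input. The 3 precipitates lay together at about the same level, with V5 overlapping IgG (-0.01 ± 0.074, adjusted p = 0.948, against -0.12 ± 0.074 with GFP, adjusted p = 0.195). With spike-in scaling, which shifted all genes upward, both differences were positive and called (0.36 and 0.35, adjusted p = 0.0152 and 0.0142).

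Most genes of the classical SR proteins stood above IgG in both precipitates. Srsf1, the splicing factor also called SF2 or ASF, read 18.6 and 16.8 with V5, 26.7 and 22.3 with GFP, 8.32 and 7.21 with IgG and 12.4 and 12.8 in input. The groups did not overlap, and the gains over IgG were 1.19 ± 0.12 with V5 (2.29-fold, adjusted p = 0.00135) and 1.65 ± 0.12 with GFP (3.15-fold, adjusted p = 0.000148). Srsf2, a marker of nuclear speckles, read 41.4 and 37.2 with V5, 59.1 and 55.7 with GFP, 19.0 and 19.3 with IgG and 17.7 and 19.2 in input. IgG and input overlapped. Its gains over IgG were 1.04 ± 0.083 with V5 and 1.58 ± 0.083 with GFP (adjusted p = 0.000918 and 8.23e-05), and those over input 1.09 ± 0.083 and 1.64 ± 0.083. Its 4 probes lay between 1.53 and 1.75 in GFP against IgG.

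Srsf7, which also helps mRNA export, read 24.6 and 23.3 with V5, 31.9 and 30.2 with GFP, 13.3 and 11.5 with IgG and 12.2 and 12.1 in input. As with Srsf2, IgG and input overlapped, and the gains over IgG were 0.95 ± 0.089 with V5 and 1.33 ± 0.089 with GFP (adjusted p = 0.00122 and 0.000131). Srsf3, the smallest of the classical SR proteins, read 0.363 and 0.391 with V5, 0.548 and 0.529 with GFP, 0.244 and 0.163 with IgG and 0.374 and 0.366 in input, and gained 0.92 ± 0.18 with V5 and 1.43 ± 0.18 with GFP (adjusted p = 0.00733 and 0.000650). Its V5 call ended without V5 replicate 1 and input replicate 2 together (0.97). Srsf11, Srsf6 and Srsf5 gained 0.91 ± 0.080, 0.65 ± 0.087 and 0.60 ± 0.097 with V5 and 1.20 ± 0.080, 1.14 ± 0.087 and 0.97 ± 0.097 with GFP, all called. Without the same 2 arrays the V5 calls of Srsf6 (0.56, adjusted p = 0.0605) and Srsf5 (0.66, adjusted p = 0.0627) ended. Srsf9 (0.22 ± 0.10 with V5, adjusted p = 0.0966) and Srsf4 (0.09 ± 0.069, adjusted p = 0.295) did not pass with V5 and were called with GFP, at 0.47 ± 0.10 and 0.36 ± 0.069.

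**Figure D3:**
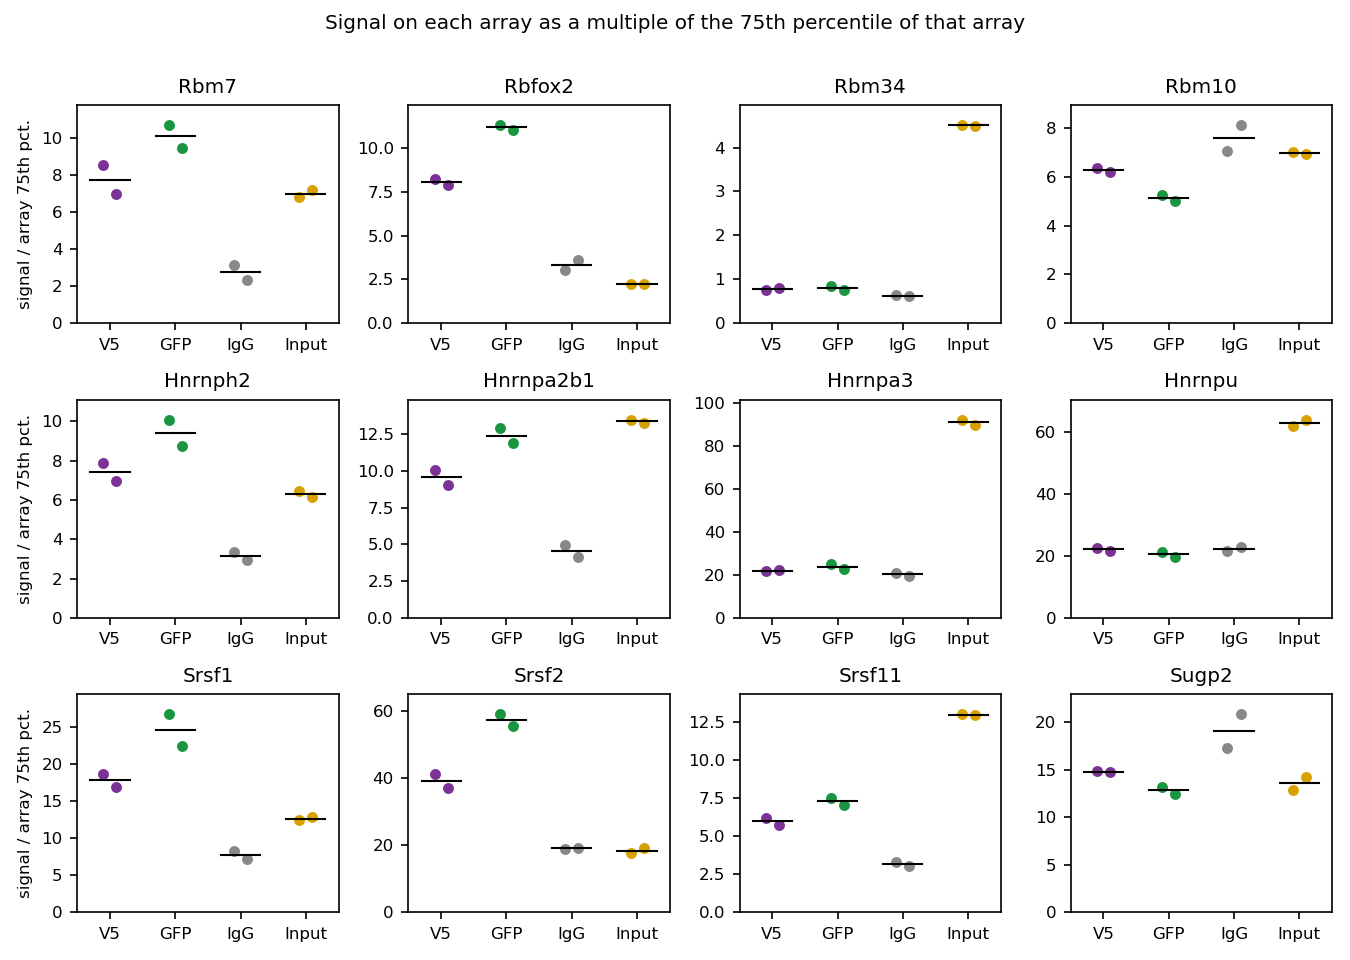
Signal of 12 named genes on each array as a multiple of the 75th percentile of that array, with 1 point per array and a line at the mean of each group of 2. The IgG points are lowest for Rbm7, Hnrnph2, Hnrnpa2b1, Srsf1 and Srsf11, the input points stand far above the rest for Rbm34, Hnrnpa3 and Hnrnpu, and the IgG points are highest for Sugp2 and reach highest for Rbm10, an order of IgG and input that spike-in scaling turned. Each panel has its own vertical axis, starting at 0, and levels are not comparable between genes.

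The SR genes that now bear other symbols mostly went the other way. Tra2b (Sfrs10 on the array), a splicing activator with SR-like ends, is the exception, with 4.77 and 4.44 with V5, 6.67 and 5.86 with GFP, 2.06 and 1.55 with IgG and 4.81 and 5.05 in input. Its IgG arrays were lowest, and it gained 1.37 ± 0.14 with V5 (2.58-fold, adjusted p = 0.00154) and 1.81 ± 0.14 with GFP (3.51-fold, adjusted p = 0.000199). Sugp2 (Sfrs14), a protein with a G-patch, read 14.8 and 14.7 with V5, 13.2 and 12.4 with GFP, 17.3 and 20.8 with IgG and 12.9 and 14.2 in input, so that IgG alone stood out upward, though not with spike-in scaling (-0.29 against input). It was -0.36 ± 0.11 with V5 (adjusted p = 0.0267, and 0.0047 with spike-in scaling) and -0.57 ± 0.11 with GFP (adjusted p = 0.00307) against IgG.

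Clasrp (Sfrs16), a partner of a kinase of SR proteins, read 29.0 and 26.7 with V5, 24.3 and 24.1 with GFP, 32.5 and 38.4 with IgG and 15.7 and 15.9 in input. All precipitates, the mock first, lay above input, and against IgG it was -0.34 ± 0.095 with V5 (adjusted p = 0.0221, and 0.022 with spike-in scaling) and -0.55 ± 0.095 with GFP (adjusted p = 0.00228). Scaf4 (Sfrs15), which binds RNA polymerase II, was -0.26 ± 0.073 with V5 and -0.37 ± 0.073 with GFP (adjusted p = 0.0221 and 0.00385), signs that turned with spike-in scaling (0.10 and 0.093). Sfswap (Sfrs8), the mammalian counterpart of a fly splicing regulator, was -0.18 ± 0.062 with V5 and -0.34 ± 0.062 with GFP (adjusted p = 0.0434 and 0.00273), which also turned (0.19 and 0.12). The 4 calls with V5 were weak. They ended without V5 replicate 1 and input replicate 2 together, and also without IgG replicate 2 (-0.23 for Sugp2, -0.22 for Clasrp, -0.19 for Scaf4 and -0.20 for Sfswap) or V5 replicate 2 (-0.36, -0.28, -0.28 and -0.21). Those of Sugp2, Scaf4 and Sfswap also ended without V5 replicate 1 (-0.36, -0.25 and -0.16), and that of Sfswap ended without any other single array.

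**Figure D4:**
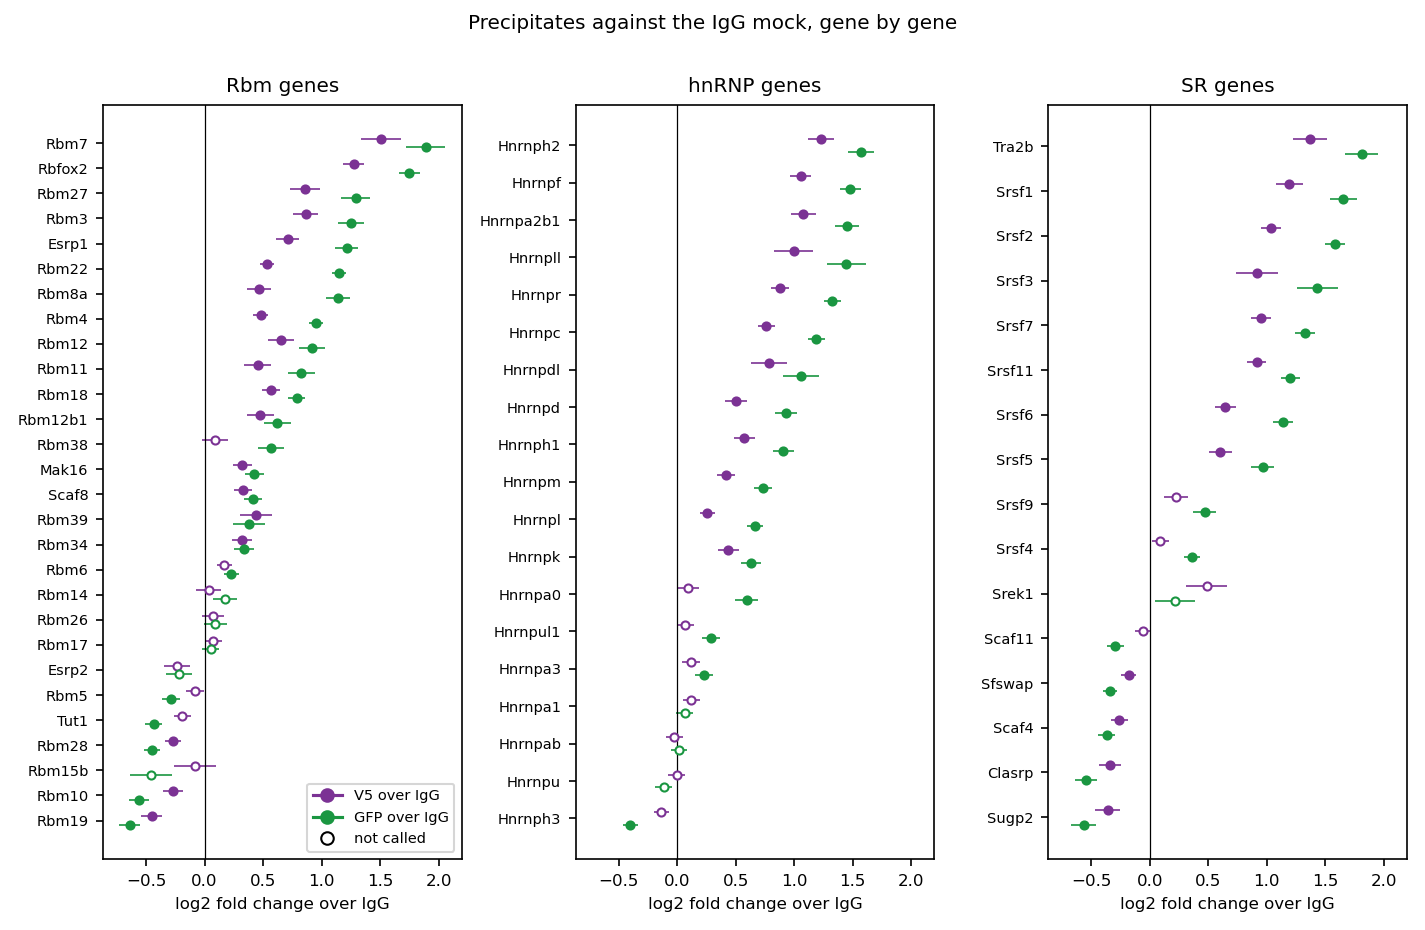
Log2 fold change over IgG ± SE of each measured gene with V5 (purple) and with GFP (green), filled where called at an adjusted p under 0.05 (limma, n = 2 arrays per group). Rows run from the highest to the lowest value with GFP in each family. Rbm7, Hnrnph2 and Tra2b top the families, and the lower end of the SR panel holds Scaf11, Sfswap, Scaf4, Clasrp and Sugp2, none of which was called lower with spike-in scaling.

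IgG against input asks how the mock precipitate differs from the starting RNA. Of 63 members 15 were called higher and 42 lower, against 43.9% and 29.3% of all genes (73.2% in either direction), with a median of -0.62 for the members and 0.22 for all genes. Of 19 hnRNP genes 16 were lower and 3 higher (median -1.11), and of 28 Rbm genes 19 were lower and 7 higher (-0.59). SR genes were split, with 7 lower and 5 higher of 16 (median 0.01, with a range of -0.77 to 0.02 over the settings). With spike-in scaling the median over all genes was -0.56, in place of 0.22, and 18.3% of all calls were higher, in place of 60.0%. That scaling moved the typical gene by -0.78, turned the sign of 17 members and gave 57 members lower and 2 higher. Of the 15 calls above input 9 became calls below it, those of Tut1, Rbm4, Sugp2, Scaf4, Srsf4, Srsf9, Hnrnpa0, Hnrnpl and Hnrnpul1. Without V5 replicate 1 and input replicate 2 together 9 of 57 calls ended, those of Hnrnpa0, Hnrnph3, Hnrnpl, Hnrnpul1, Rbm11, Rbm12, Rbm5, Scaf4 and Srsf4. Relative to all genes, the hnRNP median lay 1.21 to 1.61 below in all 18 settings, the Rbm median 0.65 to 0.95 below and the SR median 0.15 to 0.49 below.

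The greatest loss was that of Rbm34, a nucleolar protein, which read 0.646 and 0.609 with IgG and 4.51 and 4.50 in input (-2.85 ± 0.083, 7.19-fold lower, adjusted p = 6.13e-06). The V5 arrays (0.758 and 0.808) and the GFP arrays (0.841 and 0.746) lay near IgG, so all 3 precipitates stood far below input. Mak16 was -1.58 ± 0.082 (adjusted p = 1.38e-05). Among hnRNP genes the lowest were Hnrnpa3 (-2.17 ± 0.076, 4.49-fold lower, adjusted p = 7.16e-06) and Hnrnpdl (-2.01 ± 0.15, adjusted p = 4.23e-05), a relative of Hnrnpd. Hnrnpc (-1.67 ± 0.071), Hnrnpa2b1 (-1.56 ± 0.11), Hnrnpu (-1.51 ± 0.074), Hnrnpd (-1.16 ± 0.093), Hnrnpa1 (-1.11 ± 0.074) and Hnrnpk (-0.79 ± 0.089) were all called lower. Single probes ran from -2.01 to -0.017 for Hnrnpdl and from -2.10 to 0.17 for Hnrnpa1. Among SR genes the lowest were Srsf11 (-2.03 ± 0.080, adjusted p = 8.52e-06), which read 3.34 and 3.02 with IgG against 13.0 and 13.0 in input, and Srsf5 (-1.69 ± 0.097, adjusted p = 1.77e-05). The dimmer probe of Srsf5 fell less, at 2.72 and 2.17 with IgG against 3.02 and 2.62 in input. Srsf3 (-0.89 ± 0.18) and Srsf1 (-0.70 ± 0.12) were called lower as well, while Srsf2 (0.05 ± 0.083, adjusted p = 0.571) and Srsf7 (0.03 ± 0.089, adjusted p = 0.789) did not pass and lay below 0 with spike-in scaling (-0.73 and -0.75). Rbm3 (-0.86 ± 0.11), Rbm8a (-0.89 ± 0.10) and Rbm39 (-1.34 ± 0.14) were called lower.

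A few members stood higher in the mock than in input. Rbm15b, which helps guide RNA methylation, read 0.253 and 0.241 with IgG and 0.0804 and 0.0686 in input (1.73 ± 0.18, adjusted p = 0.000161). Clasrp (1.16 ± 0.095, adjusted p = 5.81e-05) and Rbm38 (1.06 ± 0.11, adjusted p = 0.000165), a stability factor for mRNAs of the p53 pathway, were also more than 2-fold higher. Spike-in scaling moved the typical gene by -0.78 here. Rbm15b, Clasrp and Rbm38 then stayed above input but by less than 2-fold, and not all of their calls held. Sugp2 (0.49 ± 0.11, adjusted p = 0.00533), Hnrnpl (0.31 ± 0.068, adjusted p = 0.00519) and Hnrnpa0 (0.31 ± 0.097, adjusted p = 0.0249) were called higher, but their signs turned with spike-in scaling (-0.29, -0.47 and -0.47). The call of Hnrnpa0 ended without either input array or IgG replicate 2 (0.32, 0.30 and 0.19). Rbm5 was called lower (-0.22 ± 0.076, adjusted p = 0.0354), a call that held only without GFP replicate 1 or GFP replicate 2 among the 8 fits that left out 1 array, with values of -0.27 to -0.17 in the others. Rbm10 did not pass (0.12 ± 0.083, adjusted p = 0.240, and -0.66 with spike-in scaling).

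The precipitates were also set against input, the RNA they were taken from. In V5 against input 15 of 63 members were called higher and 28 lower, against 37.7% and 35.5% of all genes, or 73.2% in either direction (median -0.11 for members and 0.01 for all genes). In GFP against input 24 were higher and 23 lower, against 36.2% and 39.1% of all genes, or 75.2% in either direction (median 0.00 for members and -0.06 for all genes). hnRNP genes were 3 higher and 14 lower with V5 (median -0.51) and 5 higher and 8 lower with GFP (-0.20). Rbm genes were 5 higher and 10 lower with V5 (-0.09) and 11 higher and 10 lower with GFP (0.22). SR genes were 7 higher and 4 lower with V5 (0.11) and 8 higher and 5 lower with GFP (0.44). With spike-in scaling the medians over all genes were -0.41 with V5 and -0.38 with GFP, and 27.2% of all calls with V5 were higher, in place of 51.4%, and 31.0% with GFP, in place of 48.1%. The members' counts were then 7 higher and 38 lower with V5 and 16 higher and 33 lower with GFP. The Rbm median with GFP was then -0.10 and the SR median with V5 -0.31, both of the opposite sign, and the signs of 16 members turned with V5 and of 8 with GFP. Without V5 replicate 1 and input replicate 2 together 12 of 43 calls with V5 ended, those of Hnrnpa0, Hnrnpab, Hnrnpk, Hnrnpll, Hnrnpul1, Scaf8, Tut1, Rbm5, Rbm8a, Srsf1, Srek1 and Srsf4. With GFP 7 of 47 ended, those of Rbm14, Scaf8, Rbm26, Rbm3, Rbm7, Srsf3 and Sfswap.

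The members that stood above input in both precipitates were led by Rbfox2 (1.86 ± 0.090 with V5, adjusted p = 1.50e-05, and 2.33 ± 0.090 with GFP, 5.03-fold, adjusted p = 6.01e-06). Rbm38 followed (1.15 ± 0.11 with V5, adjusted p = 0.000141, and 1.63 ± 0.11 with GFP, adjusted p = 2.94e-05), as did Rbm15b (1.65 ± 0.18 with V5, adjusted p = 0.000234, and 1.28 ± 0.18 with GFP, adjusted p = 0.000699). Among SR genes Srsf2 (1.09 ± 0.083 and 1.64 ± 0.083) and Srsf7 (0.98 ± 0.089 and 1.35 ± 0.089) were highest with V5 and GFP. Srsf1 was 0.49 ± 0.12 with V5 (adjusted p = 0.00811, a call that ended without V5 replicate 1, at 0.42) and 0.96 ± 0.12 with GFP (adjusted p = 0.000369). Srsf3 did not pass with V5 (0.03 ± 0.18, adjusted p = 0.900, and -0.39 with spike-in scaling) and was called with GFP (0.54 ± 0.18, adjusted p = 0.0285), until either GFP or either input array was left out (0.51 to 0.57). Among hnRNP genes Hnrnpl (0.57 ± 0.068 and 0.98 ± 0.068) and Hnrnpa0 (0.40 ± 0.097 and 0.90 ± 0.097) were highest, Hnrnpa0 with a V5 value of -0.012 under spike-in scaling.

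At the other end, Rbm34 (-2.52 ± 0.083 with V5 and -2.51 ± 0.083 with GFP), Hnrnpa3 (-2.05 ± 0.076 and -1.93 ± 0.076) and Hnrnpu (-1.51 ± 0.074 and -1.62 ± 0.074) stayed far below input with both antibodies, each at an adjusted p under the threshold. Mak16 (-1.26 ± 0.082 with V5) and Rbm28 (-1.28 ± 0.069 with GFP) were next among Rbm genes. Among SR genes Srsf11 (-1.12 ± 0.080) and Srsf5 (-1.09 ± 0.097) were lowest with V5, and Srek1 (Sfrs12, -1.06 ± 0.17) and Scaf11 (Sfrs2ip, -0.87 ± 0.070) with GFP. The dimmer probe of Srsf5 went the other way, at 3.40 and 3.38 with V5 against 3.02 and 2.62 in input. Hnrnpc (-0.91 ± 0.071 and -0.48 ± 0.071) and Hnrnpa1 (-0.98 ± 0.074 and -1.04 ± 0.074) were called lower with V5 and GFP. Hnrnpd (-0.66 ± 0.093), Hnrnpa2b1 (-0.48 ± 0.11) and Hnrnpk (-0.35 ± 0.089) were called lower with V5, and with GFP they did not pass and stood at -0.23 ± 0.093, -0.11 ± 0.11 and -0.16 ± 0.089 (adjusted p = 0.0567, 0.368 and 0.149). The V5 call of Hnrnpk ended without V5 replicate 2 (-0.33) or input replicate 2 (-0.31). Rbm39 (-0.90 ± 0.14 and -0.96 ± 0.14) and Rbm5 (-0.30 ± 0.076 and -0.51 ± 0.076) were called lower with both, and the V5 call of Rbm5 ended without V5 replicate 2 (-0.29) or input replicate 2 (-0.25). Rbm10 was -0.15 ± 0.083 with V5 (adjusted p = 0.136) and -0.44 ± 0.083 with GFP (adjusted p = 0.00273). Rbm8a was -0.42 ± 0.10 with V5 (adjusted p = 0.00933, not called without input replicate 2, at -0.36) and 0.26 ± 0.10 with GFP (adjusted p = 0.0568, and -0.061 with spike-in scaling). Rbm3 was 0.01 ± 0.11 with V5 (adjusted p = 0.964, and -0.41 with spike-in scaling) and 0.40 ± 0.11 with GFP (adjusted p = 0.0151, not called without GFP replicate 1 or either input array, at 0.35 to 0.41).

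V5 against GFP tests the difference between the 2 precipitates within a slide, which is also the difference of their gains over IgG. Of 63 members 1 was called higher with V5 and 18 lower, against 6.76% and 7.17% of all genes (13.9% in either direction), with a median of -0.26 for the members and 0.09 for all genes. With spike-in scaling 11.0% of all calls were higher, in place of 48.5%, and 0 members were called higher and 22 lower. The calls lower with V5 were 6 of 28 Rbm genes (median -0.12), 7 of 19 hnRNP genes (-0.34) and 5 of 16 SR genes (-0.28). The differences were all under 2-fold, and their adjusted p lay between 0.0263 and 0.0496, just under the threshold. They depended on the fit: 0 members were called lower in each of the 6 fits without 1 input, V5 or GFP array, and 28 without either IgG array. With the replicate number as a block 0 members were called in either direction, and with only the V5 and GFP arrays in the fit also 0. Over all 17593 genes the block left 1 higher and 1 lower, and the fit of only these arrays 2 higher and 0 lower. Calls over all genes likewise became fewer without an input, V5 or GFP array and more without an IgG array. In the fit of all arrays 39 of 63 members had an unadjusted p under 0.05, against 6734 of all 17593 genes.

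Rbm8a gave the largest of these differences, at 14.03 and 16.9 with V5 against 25 and 24.1 with GFP (-0.67 ± 0.10, adjusted p = 0.0287). Rbm22 read 1.26 and 1.30 with V5 against 1.96 and 1.97 with GFP (-0.62 ± 0.059, adjusted p = 0.0263). Both genes had V5 arrays wholly below the GFP arrays. Srsf2 (-0.55 ± 0.083, adjusted p = 0.0287) and Srsf6 (-0.49 ± 0.087, adjusted p = 0.0299) were the lowest called SR genes, and Hnrnpa0 (-0.50 ± 0.097, adjusted p = 0.0329) and Hnrnpr (-0.45 ± 0.074, adjusted p = 0.0289) the lowest called hnRNP genes. Hnrnph3 alone was called higher with V5 (0.27 ± 0.066, adjusted p = 0.0464), at 0.532 and 0.504 against 0.439 and 0.422 with GFP. Of the textbook members, Srsf1 (-0.46 ± 0.12), Srsf7 (-0.38 ± 0.089), Hnrnpc (-0.43 ± 0.071), Hnrnpd (-0.43 ± 0.093) and Hnrnpl (-0.41 ± 0.068) were called lower. Not past the threshold were Srsf3 (-0.51 ± 0.18), Rbm3 (-0.39 ± 0.11), Hnrnpa2b1 (-0.37 ± 0.11), Hnrnpk (-0.19 ± 0.089), Rbm39 (0.06 ± 0.14), Hnrnpa1 (0.06 ± 0.074), Hnrnpu (0.11 ± 0.074), Rbm5 (0.21 ± 0.076) and Rbm10 (0.29 ± 0.083), with adjusted p between 0.0588 for Rbm3 and 0.755 for Rbm39. The signs of Hnrnpa1 (-0.040) and Rbm39 (-0.033) turned with spike-in scaling. Of the 19 called genes, the call of each ended in the 6 fits without 1 input, V5 or GFP array, and in that without V5 replicate 1 and input replicate 2 together.

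Probes of the same gene did not always agree, and the value of a gene is that of its brightest probe. A probe that was below background on both arrays of a group compared is left out here. In GFP against IgG 11 of 39 members with several probes left had probes of opposite sign, or 28.2%, against 23.3% of all such genes, and the median distance between the lowest and the highest probe was 0.37 for the members and 0.28 for all genes. In IgG against input that distance was 0.71 for 40 members and 0.40 for all genes. Rbm26, which has 5 probes and is linked like Rbm27 to nuclear RNA decay, shows how far probes can lie apart. Its brightest probe read 1.79 and 1.57 with IgG against 2.34 and 2.42 in input, or -0.51 ± 0.098, and 3 others lay between -3.02 and -1.48. The dimmest read 0.179 and 0.160 in input and was not well above background on any precipitate array, so it was at least 5.99-fold lower with IgG (adjusted p = 9.45e-06), a bound taken against the lowest signal that was well above background. The 4 probes of Rbm26 measured in all groups stood between -0.14 and 0.18 in GFP against IgG.

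Sfswap is the clearest case of disagreement over IgG. In GFP against IgG 3 of its 4 probes lay between -0.46 and -0.31, and the 4th, annotated with another transcript record, was 0.77 ± 0.10 (adjusted p = 0.000911). That probe read 2.52 and 2.42 with V5, 2.71 and 3.04 with GFP, 1.63 and 1.73 with IgG and 0.534 and 0.460 in input, so its groups stood in an order that the other 3 probes did not show. In GFP against IgG, Hnrnpll (-0.54 against 1.33 and 1.45), Rbm18 (-0.33 against 0.35 and 0.79), Hnrnpul1 (-0.26 against 0.29) and Hnrnpa1 (-0.36 against 0.27, with 2 more probes between) also had probes called both ways. The Hnrnpll probe at -0.54 lay near background, at 0.0319 and 0.0333 with GFP and 0.0542 and 0.0417 with IgG. The call of Hnrnpul1 above IgG ended without GFP replicate 1 (0.25). Of Hnrnpa2b1 the dimmer of 2 probes was -0.28 in GFP against IgG, where the brighter was 1.45, and of Tra2b the dimmer was 0.28 where the brighter was 1.81. Srsf7 had 3 probes above IgG with GFP, at 1.33, 1.60 and 2.08, but in IgG against input they were 0.03, -0.01 and -1.51. Against input the split by probe touched other genes, with probes called both ways for Rbm8a in V5 against input (-0.42 and 0.97) and, in GFP against input, for Hnrnpc (-0.48 to 0.52), Srsf5 (-0.73 to 0.50), Hnrnpdl (-0.95 to 0.55), Hnrnpab (-0.47 to 0.79) and Sfswap (-0.25 to 2.53). Rbm14, a coactivator found in paraspeckles, had 1 probe called higher in GFP against input and 1 below 0 that did not pass (-0.32 to 0.37). The part that transcript forms or probe position play was not tested.

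**Figure D5:**
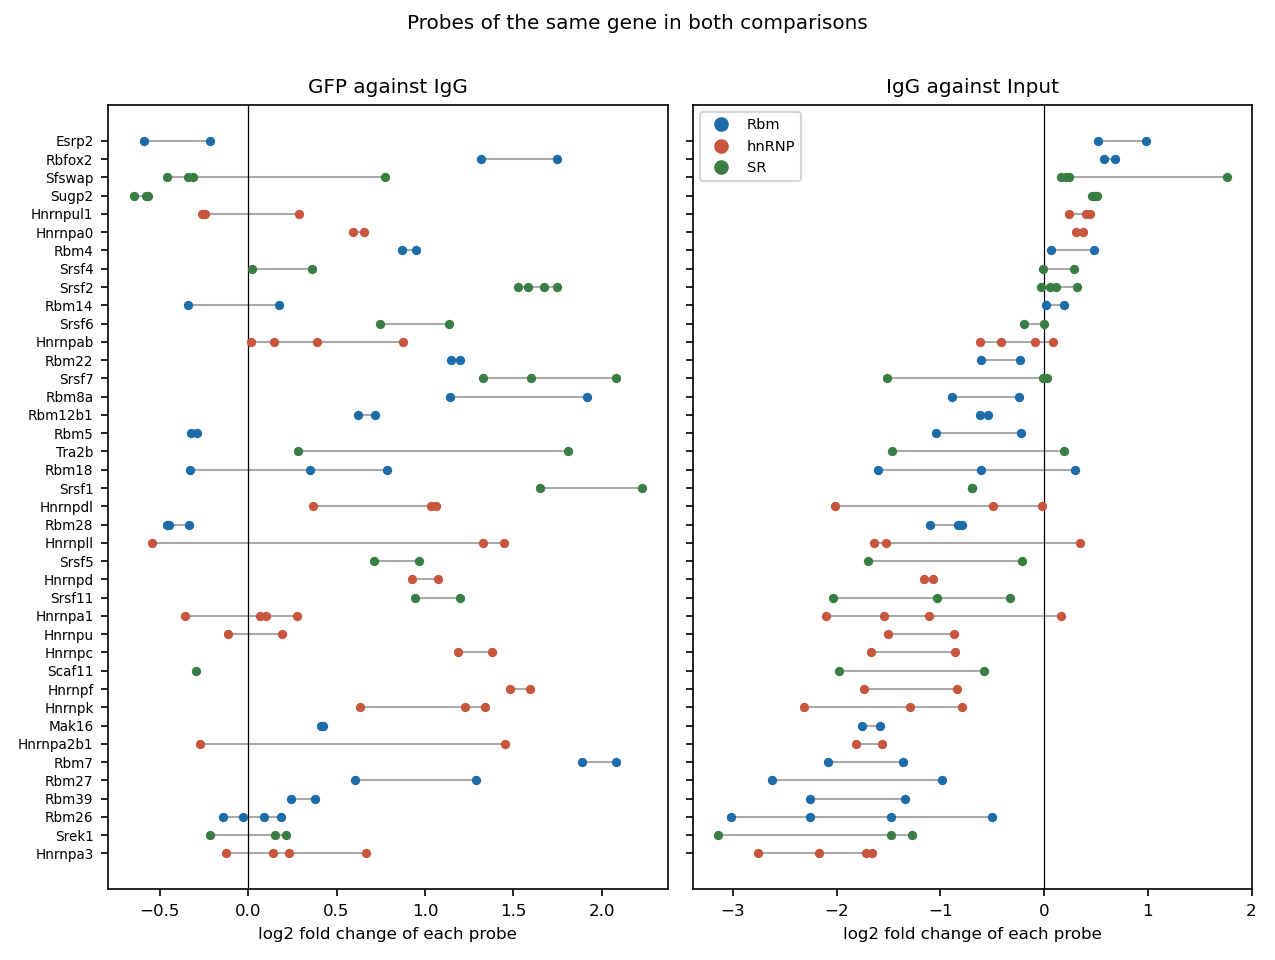
Log2 fold change of each measured probe of the 40 members with several probes, in GFP against IgG (left) and IgG against input (right), 1 point per probe with a line over the range of the gene. Probes below background on both arrays of a group compared are not drawn. In GFP against IgG the probes of Hnrnpll run from -0.54, a dim probe near background, to 1.45, and those of Srsf2 from 1.53 to 1.75. In IgG against input the 4 drawn probes of Rbm26 run from -3.02 to -0.51.

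Other genes of the same nuclear pathways give the setting. Of 35 measured genes of the core spliceosome, 7 were higher and 8 lower with V5 than with IgG (median -0.02), and 12 were higher and 12 lower with GFP (-0.01). Highest with GFP were Snrpb2 (1.20), Snrpb (1.09) and Snrpe (1.09), which encode snRNP proteins, and lowest Sf3a2 (-0.75) and Eftud2 (-0.72). Of 22 other nuclear RNA-binding proteins 9 were higher and 2 lower with V5 (median 0.08), and 12 were higher and 3 lower with GFP (0.22). Ptbp2, a splicing repressor of neurons and germ cells, stood at 1.29 with V5 and 1.73 with GFP, Matr3 at 1.04 and 1.43, and Khdrbs1 at 0.88 and 1.38, all called. Of 8 kinases of SR proteins 2 were higher and 1 lower with V5, and 2 were higher and 3 lower with GFP. Of 14 genes of the exon junction and mRNA export 4 were higher and 4 lower with either antibody, with Rnps1 highest at 0.91 with V5 and 1.36 with GFP. In IgG against input these 4 lists also had more genes lower than higher, at 20 and 5, 15 and 5, 5 and 1, and 7 and 5. Of all genes 29.3% were lower and 43.9% higher there, or 61.5% and 13.8% with spike-in scaling, where more genes were lower throughout. The counts over IgG stand beside 16.7% of all genes higher and 40.3% lower with V5 and 21.6% and 52.1% with GFP. With spike-in scaling these shares over IgG were 35.4% and 5.04% with V5 and 38.2% and 12.5% with GFP. With that scaling 0 genes of the 4 lists were lower than IgG with either antibody, and the higher ones were 21, 15, 4 and 6 with V5 and 22, 16, 5 and 6 with GFP. Only counts and medians are given for these lists, and none was tested as a list.

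Markers of other cell types moved as well. Of 10 germ cell markers 5 were higher and 1 lower with V5 than with IgG, and 7 were higher and 1 lower with GFP. Of 8 Sertoli markers 0 were higher and 7 lower with V5, and 0 were higher and 8 lower with GFP, and of 5 Leydig and 4 myoid markers all were lower with both. Of 4 leukocyte markers 3 were lower with V5 and 3 with GFP, and of 4 endothelial markers 3 and 4. The same shares of all genes, 40.3% lower with V5 and 52.1% with GFP, apply here. With spike-in scaling 1 Sertoli marker was higher and 1 lower with V5, and 4 were lower with GFP, while 0 of the Leydig, myoid, leukocyte and endothelial markers were lower with V5 and 1, 2, 1 and 1 with GFP. Of the germ cell markers 8 were then higher and 0 lower with each antibody. The summed Sertoli signal was 215 and 202 with V5, 164 and 170 with GFP, 258 and 278 with IgG and 144 and 146 in input. In the summed germ cell signal V5 and GFP arrays lay within the range of the IgG arrays and below input, at 270 and 282 with V5, 284 and 274 with GFP, 307 and 267 with IgG and 326 and 330 in input. All measured markers were well above background on both input arrays, so the input held RNA of these other cell types beside that of germ cells. Most of the genes of the 3 families are expressed in many cell types, and in such bulk RNA fewer cells of a type and less RNA per cell cannot be told apart. The part of cell type in the values of the members was not tested.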

How the data were processed

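RNA from 8 samples was measured on Agilent mouse expression arrays with 1 colour. Per the file headers, the authors' intensities are the processed signals of Feature Extraction 9.1.3.1, after background subtraction and spatial detrending and with no scaling between arrays. A deposited table of group means was not used, nor were its 9 value columns. Outlier spots were left out, spots of a probe were averaged, and log2 signals were set against the 75th percentile of the non-control spots of each array. A probe stayed in if both arrays of any 1 group were well above background, and each gene name was read from its brightest remaining probe, which left 17593 genes. limma 3.58.1 in R 4.3.3 fitted the 4 groups on all 8 arrays (4 residual and 2.41 prior degrees of freedom), with two-sided p adjusted by Benjamini-Hochberg over all genes in each of 6 comparisons. The fit was tested on simulated data. Arrays give no counts, so their number limits the precision.

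The RefSeq table of assembly GRCm38.p6 gave current symbols for 56 of 66 members by accession and for 10 by synonym. The members and the gene lists were chosen with earlier results of these data known. Genes were named as the highest and lowest called members of each family whose arrays did not overlap, up to 4 each way over IgG and 2 in the other comparisons, with textbook members (Srsf1, Srsf2, Srsf3, Srsf7, Hnrnpa1, Hnrnpa2b1, Hnrnpc, Hnrnpd, Hnrnpk, Hnrnpl, Hnrnpu, Rbm3, Rbm5, Rbm8a, Rbm10 and Rbm39) and members whose probes disagreed. Rbm4, Rbm22, Rbm26, Rbm34, Mak16, Esrp1, Hnrnph1, Srsf4, Srsf5, Srsf6 and Srsf9 over IgG and the genes named from other lists were picked with their values in view. The 17 other settings comprised normexp background correction, quantile and spike-in scaling, 2 other filters, the mean of the probes of a gene, fits of only the 2 groups compared, the replicate number as a block and fits without arrays. Titles number the replicates of each group, but deviations from the group means of equally numbered samples correlated at -0.076 to 0.11, so the numbers were not taken to pair samples. Protein features of the members were planned and are not analysed here.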

Additional observations from a re-analysis of the deposited data

Results flagged for a closer look

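For 19 members the gain over IgG was called different between the 2 antibodies. The test was that of the difference itself in limma, V5 against GFP at an adjusted p under 0.05 (n = 2 arrays per group). Of all genes 6.76% were called higher and 7.17% lower. The values are log2 fold changes of V5 against GFP, with the V5 arrays wholly below the GFP arrays for 18 genes and wholly above them for Hnrnph3. The share of all genes whose arrays did not overlap was not counted.

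Among Rbm genes these were Rbm8a (-0.67), Rbm22 (-0.62), Esrp1 (Rbm35a on the array, -0.50), Rbm38 (-0.48), Rbm4 (-0.47) and Rbfox2 (Rbm9 on the array, -0.47). Among hnRNP genes they were Hnrnpa0 (-0.50), Hnrnpr (-0.45), Hnrnpc (-0.43), Hnrnpd (-0.43), Hnrnpf (-0.42), Hnrnpl (-0.41) and Hnrnpm (-0.31), with Hnrnph3 at 0.27. Among SR genes they were Srsf2 (-0.55), Srsf6 (-0.49), Srsf1 (-0.46), Srsf7 (-0.38) and Srsf4 (-0.27). Each of these calls ended in the 6 fits without 1 input, V5 or GFP array. All 19 also ended with the replicate number as a block, with only the V5 and GFP arrays in the fit and without the background filter.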

How the results depend on the processing

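Counts are of 63 members called higher and lower, and the cause of a change was not tested. Calls over all genes changed with the setting too, and with normexp 0 of 17593 genes were called in V5 against IgG or V5 against GFP. With normexp background correction there were 0 and 0 in V5 against IgG, 26 and 1 in GFP against IgG, 4 higher in IgG against input, 6 higher in V5 against input, 10 higher in GFP against input, and 0 and 0 in V5 against GFP. With spike-in scaling 0 were lower in V5 or GFP against IgG, 2 higher in IgG against input, 7 higher in V5 against input and 0 higher in V5 against GFP. In V5 against IgG 4 were lower with quantile normalization, 2 without the background filter and 1 with only the 2 groups compared, and without input replicate 2 and V5 replicate 1 together 14 were higher and 0 lower. In V5 against GFP 2 were higher with quantile normalization and 3 with a filter on all arrays, and 0 were called either way without the filter, with only the 2 groups compared or without those 2 arrays. With the replicate number as a block the counts were 37 and 6 in V5 against IgG, 43 and 11 in GFP against IgG, 15 and 41 in IgG against input, and 0 and 0 in V5 against GFP. Without 1 array in turn the higher and lower counts ran from 30 to 38 and 1 to 6 in V5 against IgG, 38 to 44 and 10 to 11 in GFP against IgG, 13 to 17 and 40 to 42 in IgG against input, 14 to 18 and 24 to 29 in V5 against input, 19 to 25 and 21 to 24 in GFP against input, and 0 to 3 and 0 to 28 in V5 against GFP.

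Signs of single genes (array names) turned mostly with spike-in scaling, in 14, 10, 17, 16, 8 and 3 of 63 members for V5 over IgG, GFP over IgG, IgG over input, V5 over input, GFP over input and V5 over GFP, in that order. Values are given here only for genes that the naming rule chose in that comparison and that were called on at least 1 of both scales. In V5 against IgG these were Hnrpu (0.36), Rbm10 (0.096), Rbm28 (0.096), Rbm5 (0.29), Sfrs14 (0.0047), Sfrs15 (0.10), Sfrs16 (0.022) and Sfrs8 (0.19). In GFP against IgG they were Hnrph3 (0.061), Hnrpu (0.35), Rbm21 (0.028), Rbm28 (0.013), Rbm5 (0.17), Sfrs15 (0.093) and Sfrs8 (0.12). In IgG against input they were Hnrpa0 (-0.47), Hnrpl (-0.47), Rbm10 (-0.66), Sfrs14 (-0.29), Sfrs2 (-0.73), Sfrs4 (-0.49) and Sfrs7 (-0.75). In V5 against input they were Hnrpa0 (-0.012), Rbm3 (-0.41) and Sfrs4 (-0.035). Quantile normalization turned Sfrs2 in IgG against input (-0.23). The mean of the probes turned Hnrpul1 in GFP against IgG (-0.071), Sfrs7 in IgG against input (-0.50), Rbm8a in V5 against input (0.27), and Hnrpab (0.097), Hnrpc (0.021) and Sfrs8 (0.51) in GFP against input.

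With 2 arrays per group, small differences are the least certain. Hnrnpul2, Rbm31y and Rbm41 were below background on all arrays.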
